A study of Homo sapiens with 9 samples.

Results

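Aminoacyl-tRNA synthetases, genes of the ATF4 stress response and a few genes that serve them were followed in the renal carcinoma line 786-0 with HIF2α intact, blocked by the antagonist PT2385 or knocked out. The set holds 39 of the 58735 gene IDs in the table, matched to symbols through GENCODE release 44. It comprises 19 cytosolic synthetases, 8 stress regulators (ATF4, DDIT3, CEBPB, TRIB3, PPP1R15A, DDIT4, SESN2 and CHAC1), 10 enzymes of amino acid and one-carbon metabolism (ASNS, PHGDH, PSAT1, PSPH, SHMT2, MTHFD2, ALDH1L2, PYCR1, CTH and CBS), the tRNA exporter XPOT and the antisense RNA VLDLR-AS1. The genes were chosen with earlier results of these same libraries known, so their differences between groups, and the edgeR calls printed for them, describe these libraries and are not independent evidence. No p-value is given for a member.

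RNAseq was done on 3 replicates each of untreated 786-0 cells (genotype WT), of WT cells given 10 μM PT2385 for 48 h, and of cells with the genotype hif2a KO. All 9 cultures were kept at 21% O2 for 48 h in DMEM with 5 mM glucose and 10% FBS. The line comes from a clear cell renal cell carcinoma without functional VHL and without functional HIF1α, so all 3 groups share both defects and HIF2α is the HIFα subunit that remains in WT cells. The sources do not state whether the knockout line is a single clone, nor whether the untreated cells received a vehicle. Nothing states that the replicates were separate cultures, so the p-values measure only the spread between these samples.

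Aminoacyl-tRNA synthetases join each amino acid to its tRNA and so feed the ribosome with building blocks. When amino acids run short, or when unfolded protein accumulates in the endoplasmic reticulum (ER), kinases such as GCN2 and PERK phosphorylate the initiation factor eIF2α. General translation then falls while translation of the ATF4 mRNA rises, and ATF4 binds, with C/EBP partners, to composite sites in genes for amino acid synthesis and uptake, for several synthetases and for feedback factors. Much of ATF4 control acts on translation, so the level of its mRNA, which is what was measured here, is not a readout of the protein.

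Total counts ran from 11881000 to 14730081 per library, and values are CPM, library-scaled counts after TMM normalization, unless stated otherwise. EPAS1, the gene for HIF2α, had 270, 264 and 233 CPM in untreated cells, 248, 248 and 219 CPM with PT2385 and 20.2, 24.9 and 21.1 CPM in the knockout. The renal lineage gene PAX8 lay between 563 and 679 CPM in every library and VIM between 4090 and 4910 CPM. Of 7 renal markers tested, edgeR called CDH6, KRT8 and KRT18 higher and PAX2 lower both with PT2385 (1.38, 0.26, 0.47 and -0.44 on the log2 scale) and in the knockout (1.03, 0.54, 0.85 and -1.30), and their part in the members' differences was not tested. CUBN was also detected, CA9 and LRP2 had 0 counts in all libraries, and NDUFA4L2 had at most 11 counts. Of 6 markers of other cell types, PTPRC, CD68 and CDH5 had at most 2 counts, PECAM1 had 0, COL1A1 had 55 to 104 in WT libraries and 24 to 45 in the knockout, and PDGFRB had 23 to 37 and 0 to 2. In bulk RNA, fewer cells carrying a transcript and less of it per cell cannot be told apart.

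A sequence feature that does not come from the counts was looked up in the promoters. The letters TGATGNAA, the core of the composite C/EBP-ATF site, were searched on both strands from 250 bases before to 50 bases after each RefSeq transcription start on GRCh38.p14. They occurred for 7 of the 16 synthetases with a promoter entry (43.8%) and for 2 of the 16 other genes with an entry (12.5%), against 4.46% of 27305 genes in the same windows. LARS1, VARS1, YARS1, PSPH, SHMT2, ALDH1L2 and PYCR1 had no promoter entry and were not searched. The sites are shown, each with 10 flanking bases on either side, because these 9 genes were the members with a match among the 32 searched. Each is read along its gene's strand with the matched letters in capitals, which are TTGCATCA or TTTCATCA where the match lies on the other strand. The synthetase sites are
AARS1 (chr16:70289676-70289703, minus strand): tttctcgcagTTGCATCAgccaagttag
CARS1 (chr11:3057408-3057435, minus strand): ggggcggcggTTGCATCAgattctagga
GARS1 (chr7:30594835-30594862, plus strand): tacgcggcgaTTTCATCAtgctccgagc
IARS1 (chr9:92293693-92293720, minus strand): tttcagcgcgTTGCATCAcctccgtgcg
MARS1 (chr12:57488054-57488081, plus strand): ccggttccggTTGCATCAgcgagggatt
NARS1 (chr18:57621805-57621832, minus strand): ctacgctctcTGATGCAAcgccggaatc
TARS1 (chr5:33440957-33440984, plus strand): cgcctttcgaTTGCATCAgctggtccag
and the sites of the other genes are
ASNS (chr7:97872459-97872486, minus strand): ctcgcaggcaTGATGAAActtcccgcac
CHAC1 (chr15:40953252-40953279, plus strand): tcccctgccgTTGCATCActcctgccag
A match is a description of these letters and not evidence that a factor bound there.

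DDIT4 and TRIB3, the members with the largest fold changes with PT2385, are shown with the 250 bases upstream of a RefSeq start on GRCh38.p14. Capitals mark ACGTG and GCGTG, the core letters of the HIF response element, or their reverse complements CACGT and CACGC. The DDIT4 window (chr10:72273674-72273923, plus strand) held 3 cores, of which 1 was ACGTG.
DDIT4: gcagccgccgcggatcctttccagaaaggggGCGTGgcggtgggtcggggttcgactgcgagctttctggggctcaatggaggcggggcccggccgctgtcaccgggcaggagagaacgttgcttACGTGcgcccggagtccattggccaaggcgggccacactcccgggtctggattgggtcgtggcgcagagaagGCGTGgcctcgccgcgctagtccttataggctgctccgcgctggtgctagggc
The TRIB3 window (chr20:381045-381294, plus strand) held 6 cores and 0 of ACGTG, with 3 overlapping cores in its last run of capitals.
TRIB3: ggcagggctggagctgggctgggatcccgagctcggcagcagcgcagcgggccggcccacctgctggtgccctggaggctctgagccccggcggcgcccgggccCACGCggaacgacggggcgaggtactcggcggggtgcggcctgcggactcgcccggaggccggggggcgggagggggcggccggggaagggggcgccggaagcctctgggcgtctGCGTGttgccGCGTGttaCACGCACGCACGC
These cores are short and common: in the 300-base promoter windows they occurred for 52.4% of all 27305 genes, for 13 of 16 synthetases (81.2%) and for 14 of 16 other members (87.5%).

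Each of the 39 genes but 1 was detected well enough to be compared. The exception was PHGDH, which encodes the enzyme that opens serine synthesis. It had 0 counts in all 3 untreated libraries, at most 1 with PT2385 and at most 2 in the knockout, and a count of 0 allows up to 0.253 CPM in the shallowest library. Its pathway partners PSAT1 and PSPH were expressed, at 168 ± 28.9 CPM and 37.1 ± 5.49 CPM in untreated cells (mean ± SD, n = 3).

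Per kilobase of annotated exon, DDIT4 was the most abundant member in untreated cells at 190 CPM per kb, followed by ATF4 at 95.8, TARS1 at 93.5, PSAT1 at 76.0, EPRS1 at 74.1 and TRIB3 at 71.0 CPM per kb. The synthetases ranged from 5.43 CPM per kb for HARS1 to the value of TARS1. CHAC1, ASNS, ALDH1L2, CBS and VLDLR-AS1 lay at the bottom, between 0.473 and 3.53 CPM per kb. Exon length is the union over all annotated transcripts, which lowers the per-kilobase value of genes with many long isoforms.

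**Figure D1:**
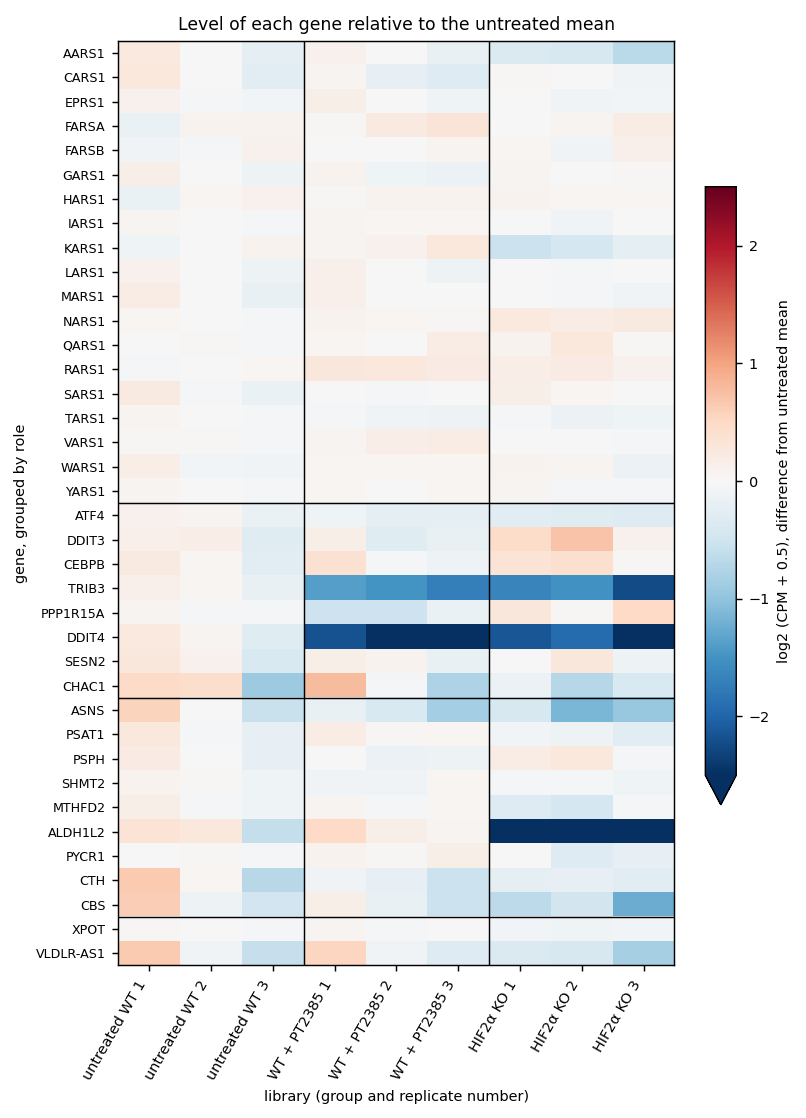
Level of 38 genes (rows, grouped by role with synthetases on top) in the 9 libraries (columns), as log2 (CPM + 0.5) minus the mean of the untreated libraries, with blue below and red above that mean. DDIT4 and TRIB3 are lower in all PT2385 and knockout libraries, ALDH1L2 is lower in the knockout libraries, and most synthetase cells stay near white.

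In the comparison of PT2385 with untreated cells, 4 of the 38 members tested passed an adjusted p under 0.05 in edgeR, when 7.7% of all 15089 genes tested did. DDIT4, TRIB3 and PPP1R15A were lower (4.62% of all genes were) and RARS1 was higher (3.08% of all genes). In the comparison of the knockout with untreated cells 9 of 38 passed, against a background of 30.1% of 15192 genes. AARS1, KARS1, ATF4, DDIT4, TRIB3, ALDH1L2 and ASNS were lower (15.4% of all genes), and NARS1 and RARS1 were higher (14.7%). In the direct comparison of the knockout with PT2385 4 of 38 passed, against 18.8% of 15402 genes, with AARS1, KARS1 and ALDH1L2 lower (10.3% of all genes) and PPP1R15A higher (8.47%) in the knockout. Groups of libraries did not overlap for 13 of the 38 members in this last comparison, against 35.4% of all genes. The contrasts of PT2385 and of the knockout with untreated cells share the same untreated libraries, so they are not independent of each other.

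The counts of members depended on single libraries. With PT2385 the count fell to 2 without untreated replicate 1, untreated replicate 2, PT2385 replicate 1 or PT2385 replicate 2, when DDIT4 and TRIB3 were the genes left. In the knockout it fell to 5 without untreated replicate 2, and between the knockout and PT2385 it was 7 without knockout replicate 3.

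**Figure D2:**
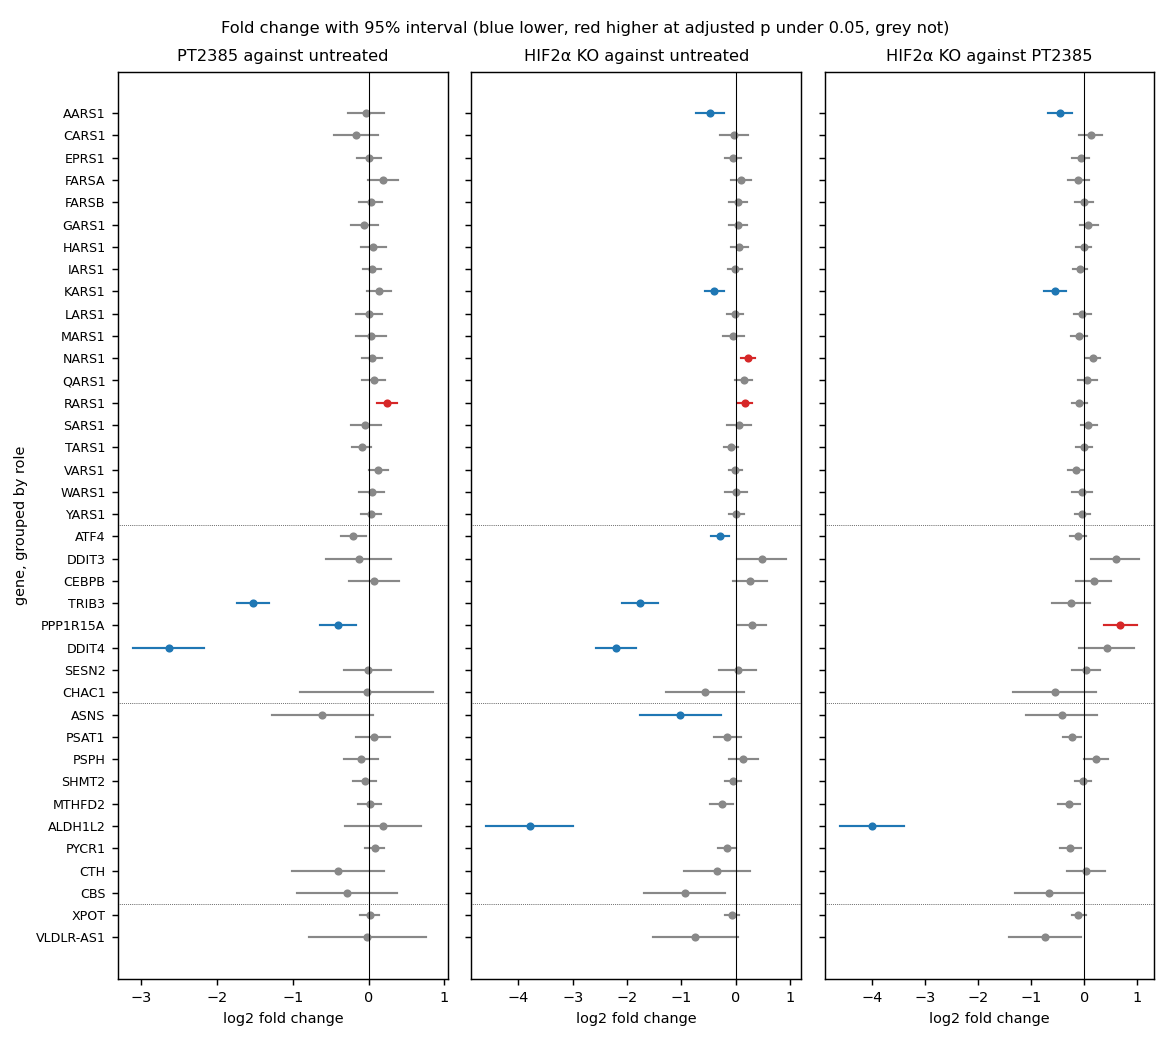
Log2 fold change (points) with 95% interval (lines) of 38 genes for PT2385 against untreated, knockout against untreated and knockout against PT2385, coloured where the adjusted p was under 0.05. The synthetases at the top sit close to 0 with short intervals, whereas DDIT4, TRIB3 and ALDH1L2 reach values from -1.53 to -4.00. The scale of the horizontal axis differs between panels.

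The stress regulators held the members with the largest changes under PT2385. DDIT4 (chr10:72273919-72276036, plus strand), also called REDD1, restrains mTORC1 and is a known hypoxia-induced gene. It had 469, 418 and 321 CPM in untreated cells, 87.9, 65.1 and 41.5 CPM with PT2385 and 89.7, 104 and 65.3 CPM in the knockout. Every untreated library lay above every other library, and the PT2385 and knockout libraries overlapped. The log2 fold change was -2.64 (SE 0.213, a 6.25-fold lower level) with PT2385 and -2.21 (SE 0.168) in the knockout. Between the knockout and PT2385 the difference was 0.42 on the log2 scale, with a 95% interval from -0.10 to 0.93. DDIT4 was called higher in the knockout there without the low-count filter, with the replicate number as a block, and without PT2385 replicate 1.

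TRIB3 (chr20:362835-397559, plus strand) encodes a pseudokinase that is induced by ATF4 and CHOP and feeds back on ATF4. It had 254, 241 and 206 CPM in untreated cells, 89.7, 82.0 and 71.2 CPM with PT2385 and 73.9, 81.4 and 49.3 CPM in the knockout. The PT2385 and knockout libraries lay below all untreated libraries and overlapped each other. Its log2 fold change was -1.53 (SE 0.0964) with PT2385, -1.76 (SE 0.153) in the knockout, and -0.25 between the knockout and PT2385 (95% interval -0.60 to 0.10). DDIT4 and TRIB3 kept their calls against untreated cells in all 7 alternative analyses and in all 6 analyses that left out 1 library.

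PPP1R15A (chr19:48872212-48876059, plus strand), known as GADD34, directs the phosphatase that removes phosphate from eIF2α. It had 31.9, 29.5 and 29.9 CPM in untreated cells, 21.1, 21.0 and 27.2 CPM with PT2385 and 37.3, 31.0 and 42.9 CPM in the knockout. The PT2385 libraries were below all the others, while the knockout and untreated libraries overlapped. The log2 fold change was -0.40 (SE 0.11) with PT2385, 0.30 (SE 0.113) in the knockout against untreated cells and 0.68 (SE 0.141) in the knockout against PT2385. The call with PT2385 was lost under upper-quartile scaling, library-size scaling and a single model of all 9 libraries, and in 5 of 6 analyses without 1 library (those without untreated replicate 1, 2 or 3 or PT2385 replicate 1 or 2). The call between knockout and PT2385 was kept in all 7 alternatives and in the 6 analyses without 1 PT2385 or knockout library. Against untreated cells PPP1R15A was called higher in the knockout without the low-count filter, with the replicate block and without knockout replicate 2.

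ATF4 itself (chr22:39519695-39522683, plus strand) had 267, 263 and 221 CPM in untreated cells, 232, 210 and 213 CPM with PT2385 and 207, 201 and 200 CPM in the knockout. The knockout libraries were the lowest of the 9, and the PT2385 libraries overlapped the untreated ones through untreated replicate 3. The log2 fold change was -0.20 (SE 0.0779) with PT2385 and -0.29 (SE 0.0763) in the knockout, and the knockout call was lost without untreated replicate 1 or untreated replicate 2. With PT2385, ATF4 was called lower only with the replicate number as a block and without untreated replicate 3.

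The other regulators overlapped between all groups. DDIT3, the gene for the pro-apoptotic factor CHOP, had 4.35 to 6.17 CPM in untreated cells, 4.33 to 6.13 CPM with PT2385 and 5.91 to 9.29 CPM in the knockout. Leaving out 1 library, its log2 fold change in the knockout was 0.3 to 0.64 against untreated cells and 0.42 to 0.74 against PT2385. DDIT3 was called higher against untreated cells with the replicate block and without knockout replicate 3. Against PT2385 it was called without the low-count filter, with the block, and without PT2385 replicate 1 or knockout replicate 3. Its exons share 355 bases with MARS1 on the opposite strand, and MARS1 had 18681 counts over the 9 libraries where DDIT3 had 720. The strand setting of the counting is not given in the sources used here, so the DDIT3 values are uncertain. CEBPB, a bZIP partner of ATF4, ran from 19.1 to 30.8 CPM, SESN2, which signals leucine shortage to mTORC1, from 38.9 to 61.9 CPM, and CHAC1, which degrades glutathione, from 3.26 to 11.7 CPM over all 9 libraries. In the knockout against untreated cells, CEBPB was called higher with the replicate block and without knockout replicate 3. CHAC1 was called lower there without the low-count filter and without untreated replicate 3, and against PT2385 without the filter.

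**Figure D3:**
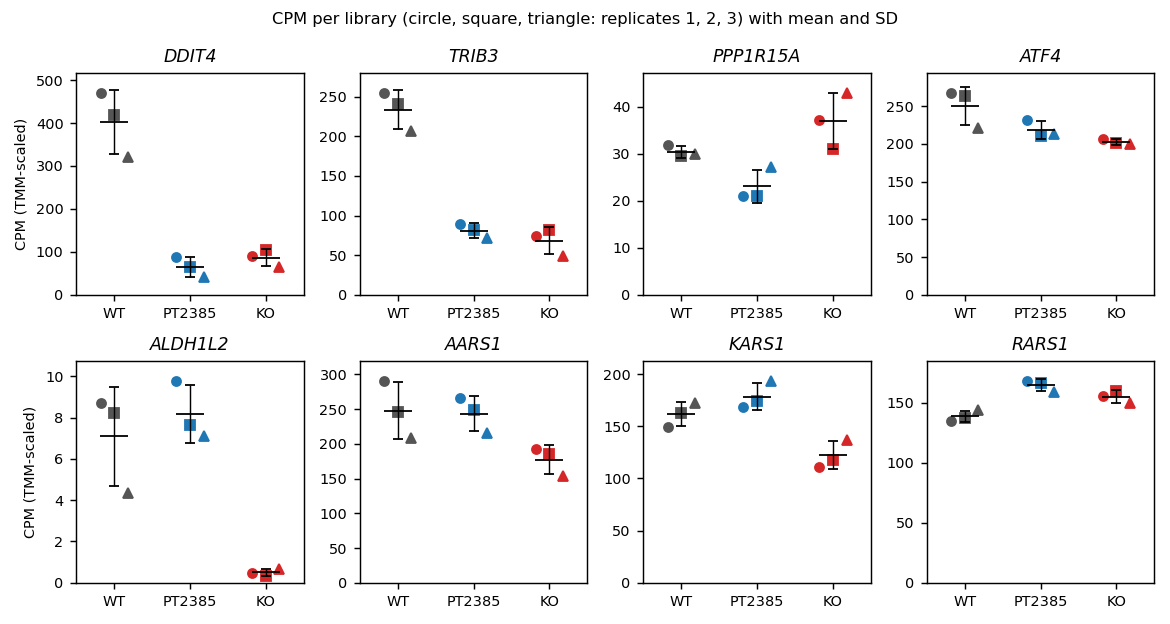
CPM of 8 members per library in untreated WT cells, WT cells with PT2385 and knockout cells, with symbols for replicates 1, 2 and 3 and bars for the mean ± SD (n = 3). DDIT4 and TRIB3 sit below the untreated libraries in both other groups, the knockout libraries are the lowest for ALDH1L2, AARS1 and KARS1, and the PT2385 libraries are the lowest for PPP1R15A.

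The cytosolic synthetases stayed close to their untreated levels. With PT2385 their median log2 fold change was 0.03 (range -0.17 to 0.24), with 18 of 19 within 0.2 of 0, as were 9762 of all 15089 genes. In the knockout the median was 0.01 (range -0.47 to 0.23), with 16 of 19 within 0.2, as were 7044 of all 15192 genes. In the knockout the median absolute log2 fold change was 0.0487 for the synthetases, 0.298 for the other 19 members tested and 0.222 for all genes. With PT2385 it was 0.0543, 0.0996 and 0.138 in the same order, so there the other members also lay below the median of all genes. Several of the other members have low counts, and the part of expression level in these differences was not tested. The other members had a median log2 fold change of -0.05 (range -2.64 to 0.19) with PT2385 and -0.25 (range -3.79 to 0.48) in the knockout, and the median of all genes was 0.00 in both.

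AARS1 (chr16:70251983-70289707, minus strand), which charges alanine tRNA, had 290, 246 and 208 CPM in untreated cells, 266, 249 and 216 CPM with PT2385 and 192, 186 and 153 CPM in the knockout. The knockout libraries lay below the other 6, and the PT2385 libraries fell within the untreated range. The log2 fold change in the knockout was -0.47 (SE 0.118) against untreated cells and -0.46 (SE 0.102) against PT2385, and it was -0.03 (SE 0.11) for PT2385 against untreated cells.

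KARS1 (chr16:75627474-75648643, minus strand) encodes lysyl-tRNA synthetase, which serves both cytosol and mitochondria. It had 149, 163 and 172 CPM in untreated cells, 168, 174 and 193 CPM with PT2385 and 111, 118 and 137 CPM in the knockout. Again the knockout libraries were the lowest, with a log2 fold change of -0.39 (SE 0.0836) against untreated cells and -0.55 (SE 0.0903) against PT2385. The AARS1 and KARS1 calls in the knockout were kept in all alternatives and all analyses without 1 library. KARS1 shares 176 exon bases with TERF2IP and AARS1 shares 43 with DDX19B, both on the opposite strand. TERF2IP had 3641 counts over the 9 libraries where KARS1 had 18115, and DDX19B had 1316 where AARS1 had 26075. Part of the counts of KARS1 and AARS1 may come from these neighbours.

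The synthetases that were higher differed by less. RARS1, for arginine tRNA, had 135, 137 and 144 CPM in untreated cells, 168, 167 and 159 CPM with PT2385 and 156, 160 and 150 CPM in the knockout. Both groups lay above all untreated libraries, at log2 fold changes of 0.24 (SE 0.0595) with PT2385 and 0.17 (SE 0.0587) in the knockout. The PT2385 call was lost without untreated replicate 1 or 2 or PT2385 replicate 1 or 2. The knockout call was lost under DESeq2, library-size scaling, no low-count filter or a single model of all libraries, and in all analyses without 1 library except that without knockout replicate 3. NARS1, for asparagine tRNA, had 151, 146 and 140 CPM in untreated cells, 154, 151 and 149 CPM with PT2385 and 172, 166 and 170 CPM in the knockout. The knockout libraries were the highest, with a log2 fold change of 0.23 (SE 0.0586), a call that was lost without untreated replicate 2 or 3.

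Of the remaining 15 synthetases, 14 overlapped between untreated and PT2385 cells and 14 between untreated and knockout cells. The exceptions were VARS1, higher in every PT2385 library at a log2 fold change of 0.13 (SE 0.058), and QARS1, higher in every knockout library at 0.15 (SE 0.0713), and neither passed the adjusted p. Groups that did not overlap were common among all genes, at 26.1% for PT2385 and 43.8% for the knockout. EPRS1, which charges both glutamate and proline tRNA and has a high level per kilobase, had 422, 387 and 374 CPM in untreated cells, 435, 393 and 365 CPM with PT2385 and 390, 369 and 377 CPM in the knockout. HARS1 shares 1090 exon bases with WDR55 on the opposite strand, and GARS1, YARS1 and WARS1 share 312 bases with GARS1-DT, 396 with S100PBP and 287 with WDR25, so part of their counts may come from these neighbours.

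XPOT carries mature tRNA out of the nucleus. It had 325, 320 and 305 CPM in untreated cells, 334, 311 and 319 CPM with PT2385 and 301, 293 and 303 CPM in the knockout. The knockout libraries lay just below the others. Its log2 fold changes were 0.02 (SE 0.0573) with PT2385 and -0.07 (SE 0.0565) in the knockout, which neither comparison called.

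Among the enzymes, ALDH1L2 (chr12:105019784-105107643, minus strand) stood apart. It encodes the mitochondrial formyltetrahydrofolate dehydrogenase, which yields NADPH. It had 8.71, 8.23 and 4.35 CPM in untreated cells, 9.76, 7.62 and 7.12 CPM with PT2385, and 0.463, 0.346 and 0.687 CPM in the knockout, where the counts were 6, 5 and 10. The PT2385 and untreated libraries overlapped and the knockout libraries were far below both. The log2 fold change was 0.19 (SE 0.229) with PT2385, -3.79 (SE 0.364, 13.8-fold lower) in the knockout against untreated cells, and -4.00 (SE 0.274) in the knockout against PT2385. These knockout calls were kept in all alternatives and without any single library. NOPCHAP1 and WASHC4, on the opposite strand, share 145 and 131 exon bases with ALDH1L2. They had 13095 and 16406 counts over the 9 libraries where ALDH1L2 had 602. Without a stated strand setting, part of the ALDH1L2 counts may come from these neighbours.

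ASNS makes asparagine and is a classical ATF4 target with the composite site shown above. Its counts were low, at 6.03, 3.95 and 2.51 CPM in untreated cells, 3.39, 2.91 and 1.96 CPM with PT2385 and 2.86, 1.52 and 1.79 CPM in the knockout. The groups overlapped. Its log2 fold change was -0.61 (SE 0.309) with PT2385 and -1.02 (SE 0.337) in the knockout, and the knockout call was lost without untreated replicate 1 or 2 or knockout replicate 2 or 3. An annotated lncRNA on the same strand shares 2415 of the 4896 exon bases of ASNS. It had 130 counts over the 9 libraries where ASNS had 344. How reads in the shared bases were counted is not stated in the sources used here, so the level of ASNS is uncertain.

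The serine and folate enzymes PSAT1, PSPH, SHMT2 and MTHFD2 and the proline enzyme PYCR1 were expressed at 31.7 to 254 CPM, and edgeR as run here called none of them in the 3 comparisons. In the knockout against PT2385, MTHFD2 (-0.29, SE 0.0946), PYCR1 (-0.26, SE 0.0858) and PSAT1 (-0.24, SE 0.077) had all knockout libraries below all PT2385 libraries. DESeq2 called MTHFD2 lower there, and library-size scaling and the single model of all libraries called MTHFD2 and PYCR1. Leaving out the low-count filter and the replicate number as a block each called all 3. Without knockout replicate 3 MTHFD2 was called lower and PSPH higher, and without knockout replicate 1 PYCR1 was called lower. Against untreated cells the single model, the analysis without the filter and the replicate block called MTHFD2 lower in the knockout. So did the analysis without knockout replicate 3, and PYCR1 was called lower without knockout replicate 1. MTHFD2, the mitochondrial methylene-tetrahydrofolate dehydrogenase, had 254, 225 and 215 CPM in untreated cells, 243, 223 and 239 CPM with PT2385 and 185, 170 and 222 CPM in the knockout. Its knockout libraries included the lowest values but overlapped the untreated range, with a log2 fold change of -0.25 (SE 0.0974). PYCR1 had a log2 fold change of -0.16 (SE 0.078) in the knockout, while SHMT2 was at -0.05 (SE 0.0674) and PSPH at 0.14 (SE 0.119).

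CTH and CBS, the transsulfuration enzymes that lead from homocysteine to cysteine, were low and spread widely among the untreated libraries. CTH had 13.7, 8.80 and 5.10 CPM in untreated cells, 7.98, 7.32 and 5.73 CPM with PT2385 and 7.10, 7.35 and 7.07 CPM in the knockout. CBS had 6.45, 3.70 and 2.76 CPM in untreated cells, 4.52, 3.51 and 2.65 CPM with PT2385 and 2.39, 2.84 and 1.44 CPM in the knockout. All groups overlapped for both genes. The log2 fold change in the knockout against untreated cells was -0.94 (SE 0.339) for CBS and -0.34 (SE 0.276) for CTH. CBS was called lower with DESeq2, without the low-count filter, with the replicate block and in the single model of all libraries. It was also called without untreated replicate 3, as was CTH, and without knockout replicate 2. CBS is known to have a near-identical copy in the GRCh38 assembly, so its counts are uncertain.

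VLDLR-AS1 is a lncRNA whose gene overlaps VLDLR, the very low density lipoprotein receptor gene, on the opposite strand by 260 exon bases. It had 4.61, 2.55 and 1.67 CPM in untreated cells, 4.19, 2.54 and 2.10 CPM with PT2385 and 2.01, 1.94 and 1.31 CPM in the knockout, so the untreated and knockout libraries overlapped. VLDLR-AS1 was called lower in the knockout against untreated cells without the low-count filter and without untreated replicate 3. VLDLR had 65.9, 55.0 and 53.4 CPM, 65.2, 58.9 and 59.7 CPM, and 44.9, 55.6 and 45.5 CPM in the same order, and without a stated strand setting reads of the pair cannot be told apart.

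Genes of the same pathways that are not members were taken from lists and tested with edgeR, with adjustment over all genes. AIMP1, AIMP2 and EEF1E1, scaffold proteins of the cytosolic multi-synthetase complex, did not pass in any comparison. Of 17 mitochondrial synthetases, edgeR called 0 with PT2385, when 7.7% of all genes were called, a share that gives few calls in a list this short. In that comparison 3 of the 17 had an unadjusted p under 0.05, and DESeq2 called 0. In the knockout 1 was up-regulated and 2 were down-regulated, 17.6% of the list when 30.1% of all genes were called. IARS2, for mitochondrial isoleucine tRNA, had 160, 159 and 184 CPM in untreated cells, 168, 164 and 180 CPM with PT2385 and 299, 308 and 315 CPM in the knockout. It was up-regulated in the knockout by 0.89 (log2, SE 0.067, edgeR adjusted p = 2.97e-06), while its cytosolic counterpart IARS1 had a log2 fold change of -0.01 (SE 0.0601).

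Of 9 amino acid transporters of a list of known ATF4 targets, 5 were down-regulated and 0 up-regulated with PT2385 (55.6%, when 4.62% of all genes were lower), and 5 and 0 in the knockout, when 15.4% of all genes were lower. SLC7A5, the light chain of the LAT1 leucine transporter, had 2220, 2300 and 2400 CPM in untreated cells, 986, 1010 and 1240 CPM with PT2385 and 590, 606 and 802 CPM in the knockout. The 3 groups did not overlap, and its log2 fold change was -1.10 with PT2385 (SE 0.0795, edgeR adjusted p = 2.65e-06) and -1.78 in the knockout (SE 0.103, edgeR adjusted p = 3.27e-07). It was also lower in the knockout than with PT2385, by -0.70 (SE 0.123, edgeR adjusted p = 0.00243). SLC3A2, the heavy chain of the same transporter, was down-regulated by -0.46 with PT2385 (edgeR adjusted p = 0.000989) and -0.97 in the knockout (edgeR adjusted p = 6.24e-06). SLC38A2, a glutamine transporter, was lower with PT2385 at -0.45 (edgeR adjusted p = 0.0292, lost without untreated replicate 1 or 2 or PT2385 replicate 2) and had a value of 0.04 in the knockout (edgeR adjusted p = 0.755). Without untreated replicate 1, untreated replicate 2 or PT2385 replicate 2 the count with PT2385 was 3, and without untreated replicate 3 the count in the knockout was 8.

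The other ATF4 and CHOP targets went both ways. With PT2385, 1 of 15 tested was up-regulated and 2 were down-regulated, when 7.7% of all genes were called in either direction. In the knockout 4 of 16 were up-regulated and 2 down-regulated, 37.5% of the list when 30.1% of all genes were called. GDF15, a secreted stress cytokine, had 2.85, 2.80 and 2.59 CPM in untreated cells, 4.92, 4.86 and 5.31 CPM with PT2385 and 43.3, 36.5 and 24.7 CPM in the knockout. It was up-regulated by 0.87 (log2, SE 0.178, edgeR adjusted p = 0.0107) with PT2385, a call lost in the single model of all 9 libraries, and by 3.67 (SE 0.223, edgeR adjusted p = 4.93e-07) in the knockout. GDF15 passed the mean of 100 counts required for naming a gene through its knockout libraries. STC2, a secreted glycoprotein induced by ER stress and hypoxia, was down-regulated by -0.86 with PT2385 (SE 0.0897, edgeR adjusted p = 6.52e-05) and by -0.40 in the knockout (SE 0.139, edgeR adjusted p = 0.0498, lost without untreated replicate 1 or 2 or knockout replicate 1 or 2). KLHL24 and the autophagy receptor SQSTM1 were up-regulated in the knockout by 1.26 (edgeR adjusted p = 0.0139, lost without untreated replicate 2 or 3) and 0.63 (edgeR adjusted p = 0.00157). Without untreated replicate 2 the knockout count of this list was 3.

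ER chaperones and other unfolded protein response genes were down-regulated in the knockout for 10 of 19 and up-regulated for 0, when 15.4% of all genes were lower. With PT2385 edgeR called 0 of 19, when 7.7% of all genes were called, a share that gives few calls in a list this short. In that comparison 1 of the 19 had an unadjusted p under 0.05, and DESeq2 called 0. CRELD2, an ER protein induced by misfolding, had 22.7, 22.2 and 21.4 CPM in untreated cells and 13.0, 17.0 and 14.6 CPM in the knockout, a log2 fold change of -0.55 (SE 0.116, edgeR adjusted p = 0.00403). HERPUD1 (-0.40), MANF (-0.37) and DNAJB11 (-0.36) were also down-regulated, with edgeR adjusted p of 0.0134, 0.025 and 0.0111, of which HERPUD1 and MANF lost the call without untreated replicate 1 or 2, MANF also without knockout replicate 2, and DNAJB11 without untreated replicate 2. The knockout count was 4 without untreated replicate 1, 2 without untreated replicate 2 and 6 without knockout replicate 2. HSPA5, the main ER chaperone, did not pass against untreated cells, with a knockout value of -0.13 (edgeR adjusted p = 0.185).

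Of 14 genes that set and read eIF2α phosphorylation, 1 was up-regulated with PT2385. That was 7.14% of the list when 7.7% of all genes were called, so the list lay at the share of all genes. The gene was EIF2B3, with a log2 fold change of 0.40 (SE 0.0859, edgeR adjusted p = 0.0133, lost without untreated replicate 1 or 3 or PT2385 replicate 2). In the knockout 4 were up-regulated and 2 down-regulated, 42.9% of the list when 30.1% of all genes were called. EIF2AK4, which encodes the amino acid sensor GCN2, had 134, 138 and 146 CPM in untreated cells and 98.9, 100 and 110 CPM in the knockout, a log2 fold change of -0.42 (SE 0.0657, edgeR adjusted p = 0.0006). PPP1R15B, the constitutive partner of the eIF2α phosphatase and paralogue of PPP1R15A, was down-regulated in the knockout by -0.44 (SE 0.061, edgeR adjusted p = 0.000289) and had a PT2385 value of 0.08 (edgeR adjusted p = 0.498). EIF2B4 and EIF2B3 were up-regulated in the knockout by 0.34 and 0.33 (edgeR adjusted p = 0.031 and 0.0415), calls that DESeq2 did not make, that were both lost without untreated replicate 2 or 3, EIF2B4 also without knockout replicate 1 and EIF2B3 also without untreated replicate 1 or knockout replicate 3. Without untreated replicate 1 the knockout count was 3 and without untreated replicate 2 it was 2.

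Of 16 further one-carbon and proline genes tested, 5 were up-regulated and 2 down-regulated in the knockout, 43.8% of the list when 30.1% of all genes were called. MTR, the methionine synthase, was down-regulated by -0.56 (SE 0.0575, edgeR adjusted p = 3.05e-05). SHMT1, the cytosolic paralogue of SHMT2, was up-regulated by 0.52 (edgeR adjusted p = 0.0172), lost without untreated replicate 2 or 3.

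**Figure D4:**
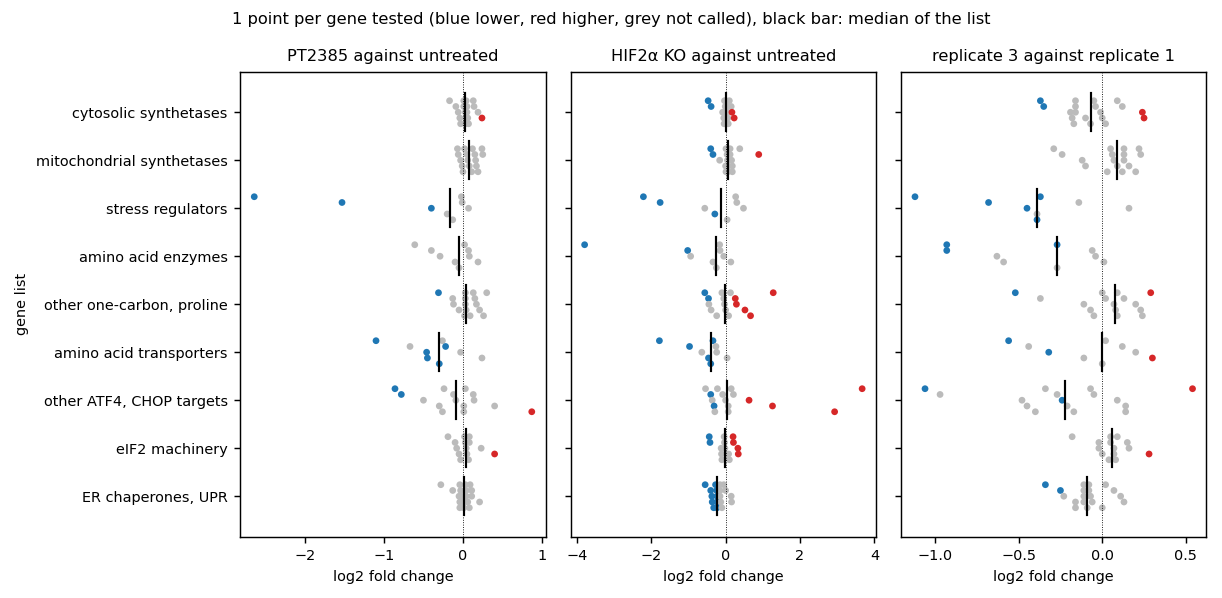
Log2 fold change of each gene tested (points) in the member lists and in the other pathway lists, for PT2385 against untreated, knockout against untreated and replicate 3 against replicate 1, with the list median as a black bar and the call as colour. Cytosolic synthetases lie near 0 in the first 2 panels, transporters lie mostly below 0 in both, and stress regulators and amino acid enzymes lie mostly below 0 in the replicate panel. The horizontal scale differs between panels.

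The members other than the synthetases also differed between replicate numbers within the groups. In untreated cells, replicate 1 lay above the group mean for all 19 of those tested and replicate 3 lay below it for all 19, with median deviations of 0.23 and -0.28 on the log2 scale. With PT2385, 15 of 19 were below the group mean in replicate 3 and 2 of 19 in replicate 1, and in the knockout 14 of 19 and 4 of 19. The synthetases deviated less, with medians from -0.06 to 0.07 over the 9 libraries. The pattern was not particular to these members. Of 19 ER chaperone and unfolded protein response genes, 17, 12 and 16 were below the group mean in replicate 3 of untreated, PT2385 and knockout cells. Their medians there were -0.06, -0.02 and -0.08. The median over all 16128 genes deviated by at most 0.01 in any library.

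In a model of all 9 libraries with group and replicate number as terms, 4 of 38 members (AARS1, DDIT4, SESN2 and TRIB3) differed between replicate numbers at an adjusted p under 0.05, when 2.82% of all genes did. Of the 9 amino acid transporters tested, 3 did (33.3%). For the direction, replicate 3 was set against replicate 1, a contrast added after the values were seen. In it 13 of 38 members passed, against 6.14% of all genes. Of the 19 other members 9 were lower in replicate 3 and 0 were higher, when 2.73% of all genes were lower and 3.42% higher, and of the 19 synthetases AARS1 and CARS1 were lower and FARSA and KARS1 were higher. The largest differences were in CHAC1 (-1.12, SE 0.262, log2), VLDLR-AS1 (-1.05, SE 0.239), ASNS (-0.93, SE 0.226) and CBS (-0.93, SE 0.224), and DDIT4 was at -0.68 (SE 0.0991).

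The count of 4 members differing between replicate numbers fell to 1 without untreated replicate 1 or without untreated replicate 3 and to 2 without PT2385 replicate 1, and it was 13 without knockout replicate 2. What the replicate numbers stand for is not stated. The earlier results used to choose the members may have included this pattern, so it is a description of these libraries. TRIB3 was at -0.39 (SE 0.0806) between replicates 3 and 1, so for DDIT4 and TRIB3 this difference was smaller than those between untreated cells and PT2385 or knockout cells.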

How the data were processed

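RNAseq libraries of 786-0 cells were analysed in 3 groups of 3, taken with their replicate numbers from the sample labels. The authors deposited raw counts, whole reads per gene without normalization. According to the study's methods and the labels, the reads passed through FastQC and cutadapt, were mapped with STAR to GRCh38 (hg38), and were assigned to genes by featureCounts. Tool versions, the annotation release and the strand setting are not given in the sources used here. Of 58735 gene IDs, 58207 were matched to symbols and positions with GENCODE release 44, and 0 columns were left unmapped.

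Each pair of groups was compared with edgeR 4.0.16 in R 4.3.3, with TMM scaling (factors 0.988 to 1.02), filterByExpr with a minimum of 10 counts, its quasi-likelihood test, and p-values adjusted after Benjamini and Hochberg across every gene tested (threshold 0.05). The steps were tested on simulated data. The study used DESeq2 for PT2385 against untreated cells, and it was run here as an alternative (DESeq2 1.42.0). Replicate numbers were tested in a model of group and replicate number over all 9 libraries. Intervals are at 95% and cover the spread between libraries. The limit given for a count of 0 is 3 counts of the library total and covers counting error only.

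The members and lists were chosen with earlier results of these data known. Named genes are all members, EPAS1, genes that overlap a member and, from each other list and comparison, up to 4 genes with the largest fold change among those called with a mean of at least 100 counts. Some genes that this rule names are withheld and not reported here. HSPA5, AIMP1, AIMP2, EEF1E1 and the cell type markers were named outside this rule, as was SLC38A2 in the knockout and PPP1R15B with PT2385. Promoter sequences are from RefSeq (GRCh38.p14), and 32 of 39 members had an entry.

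Alternatives were RLE, upper-quartile and library-size scaling, DESeq2, no low-count filter, the replicate number as a block, a single model of all 9 libraries, and leaving out each library.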

Additional observations from a re-analysis of the deposited data

How the results depend on the processing

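No member's fold change that was called turned its direction under any alternative, and of the 1482 values of single members under the alternatives 1403 kept their side of the threshold. The main comparisons did not treat the replicate number as pairing the samples. Correlations of same-numbered libraries' deviations ran from 0.132 to 0.222 for replicates 1 and 3 but from -0.0143 to 0.0325 for replicate 2. Replicate 1 of a group correlated with replicate 3 of another at -0.223 to -0.127, and a library correlated best with its own number in 14 of 18 cases. These values do not settle whether the samples were paired. If they were, the standard errors given for members include variation shared by a replicate number. With the replicate block the genes called with PT2385 numbered 2427 against 1162 without it, and the members called numbered 14 against 9 in the knockout and 10 against 4 between the knockout and PT2385. Without the low-count filter, 10 members were called between the knockout and PT2385, and 1552 genes and 14 members (against 455 and 4) between replicate numbers. The cause was not tested. Leaving out 1 library gave 574 to 1451 genes and 2 to 4 members with PT2385, 3344 to 5094 genes and 5 to 12 members in the knockout, 1836 to 3190 genes and 4 to 7 members between the knockout and PT2385, and 65 to 900 genes and 1 to 13 members between replicate numbers. The leave-one-out counts for replicate numbers and the counts of the other gene lists under each alternative were added after seeing the data. Where a group is left with 2 libraries, fewer samples carry the estimate. Other scalings moved the median of all genes by at most 0.0207 on the log2 scale. Members under about 10 CPM (DDIT3, CHAC1, ASNS, ALDH1L2, CTH, CBS and VLDLR-AS1) rest on the fewest counts and have wide intervals. DDIT4, with many counts, also had a wide interval with PT2385 (SE 0.213, against 0.196 for DDIT3).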
